A study of Homo sapiens with 3 samples.

Results

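The genes described are 50 factors of general RNA decay, chosen by name as parts of known decay complexes: 10 subunits of the RNA exosome, the 3 subunits of the SKI complex, 6 adaptors of the nuclear exosome, PARN with PAN2 and PAN3, the exoribonucleases XRN1 and XRN2, 7 decapping factors, 10 subunits or partners of CCR4-NOT and 9 factors of nonsense-mediated decay (NMD). They stand among 55827 gene names found in every library. The cells were PLC, an established line of human hepatocellular carcinoma, in 3 groups of 1 RNA-seq library each. The shDIS3L2 cells received hairpin viruses against DIS3L2, a 3′ to 5′ exoribonuclease with a preference for RNA tailed with uridines. The shHNRNPU cells received hairpins against HNRNPU, the gene of hnRNP U, an abundant protein that binds RNA in the nucleus. The control cells received a non-targeting hairpin, so all 3 groups were infected, and all were harvested 48 hours later. The sources used here do not state how many hairpins were used per target or whether they were pooled.

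Cytoplasmic mRNA decay usually begins with shortening of the poly(A) tail, by PAN2-PAN3 and then CCR4-NOT. The body is then degraded either from the 5′ end, after DCP2 removes the cap, by XRN1, or from the 3′ end by the exosome, a barrel of ring and cap subunits that binds its nucleases and is fed by the SKI helicase in the cytoplasm and by MTR4 in the nucleus. NMD recruits the same enzymes to mRNAs on which translation stops early, through UPF1 and the SMG proteins. DIS3L2 belongs to the same family as the exosome nuclease DIS3 but acts without the exosome.

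Values are FPKM, that is fragments corrected for transcript length and for the mapped fragments of the library, so levels compare genes per length. Each comes with the lower and upper bound of its deposited interval, given in brackets. Because each group is a single library, no test across conditions can be made and no p-value is given, and an interval covers the estimate within a library, not the spread between cultures. Log2 ratios are of FPKM plus 1. A call needed a log2 ratio of 1 or more, or of -1 or less, and intervals of the 2 libraries that did not overlap. Intervals that do not overlap, with no condition on size, are described as apart.

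Each targeted gene was lowest in the library labelled for it. DIS3L2 had 3.23 FPKM in shDIS3L2 and 11.2 FPKM in shHNRNPU, against 7.61 FPKM in control. HNRNPU had 232 FPKM in shDIS3L2 and 33.5 FPKM in shHNRNPU, against 178 FPKM in control. Of 10 hepatocyte markers, 9 in shDIS3L2, 10 in shHNRNPU and 10 in control reached 1 FPKM, the exception being ALB at 0.856 FPKM in shDIS3L2. Their summed level was 3238 FPKM in shDIS3L2 and 7822 FPKM in shHNRNPU, against 13159 FPKM in control, so hepatocyte transcripts moved with both knockdowns, most of the sum being SERPINA1. Less RNA per cell and fewer such cells cannot be told apart in bulk RNA, and the part of this difference in the results below was not tested. Fibroblast markers stayed under 1 FPKM, CD3E was listed at 0 in every library and PTPRC in shDIS3L2 and control, and CDH5 and VWF had at most 0.0318 FPKM. Of the leukocyte markers, CD68 alone passed 1 FPKM, at a locus merged with EIF4A1 and other genes. The depth, estimated from single-exon genes, was 18.3 M fragments in shDIS3L2, 20.1 M in shHNRNPU and 23.0 M in control. This estimate assumes a level for the deposited bounds, which is unstated in the sources used here. It uses only genes whose bounds then give whole fragments. The shDIS3L2 and shHNRNPU tables held 11 and 10 mitochondrial entries and that of control held 0, and whether this affected the scale of the FPKM was not tested.

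Of the 50 genes, 47 had a mean of at least 1 FPKM. XRN1 was below it, and DCP1B and SMG6 were listed at 0 in every library, as were CACNA1C and SRR, which overlap them, so a failed estimate at these loci cannot be told apart from absent RNA. In 7 of the 47 genes the deposited value belongs to a locus that also holds another protein-coding gene: EXOSC3, EXOSC7, RBM7, PAN2, EDC4 and SMG8 in all 3 libraries, and EXOSC6 in shHNRNPU, where it was joined with AARS. Their values are those of the joined locus. A further 10 genes overlap another named locus of at least 1 FPKM, and no source used here describes the libraries as stranded, so reads at such overlaps cannot be assigned by strand. The 10 genes are EXOSC5, EXOSC8, EXOSC9, SKIV2L, SKIV2L2, ZCCHC7, EDC3, LSM1, CNOT3 and CNOT7. Locus bounds were the same in all 3 libraries for 34 of the 50 genes. They differed for the rest, among them EXOSC2, TTC37, PAN3, CNOT3, UPF3A and SMG5, and the part of this in the differences was not tested. Below, a locus of its own means 1 that holds no second coding gene, even where it overlaps another locus or holds a noncoding one. Over the 40 genes whose loci hold no second coding gene, the median level was 15.3 FPKM in shDIS3L2 and 15.3 FPKM in shHNRNPU, against 15.6 FPKM in control. The medians of all 11787 loci with a mean of at least 1 FPKM were 11.4, 11.7 and 10.6 FPKM in shDIS3L2, shHNRNPU and control. The intervals of these 40 genes had a median width to either side of 11.4%, 10.7% and 10.1% of the value in those libraries.

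**Figure D1:**
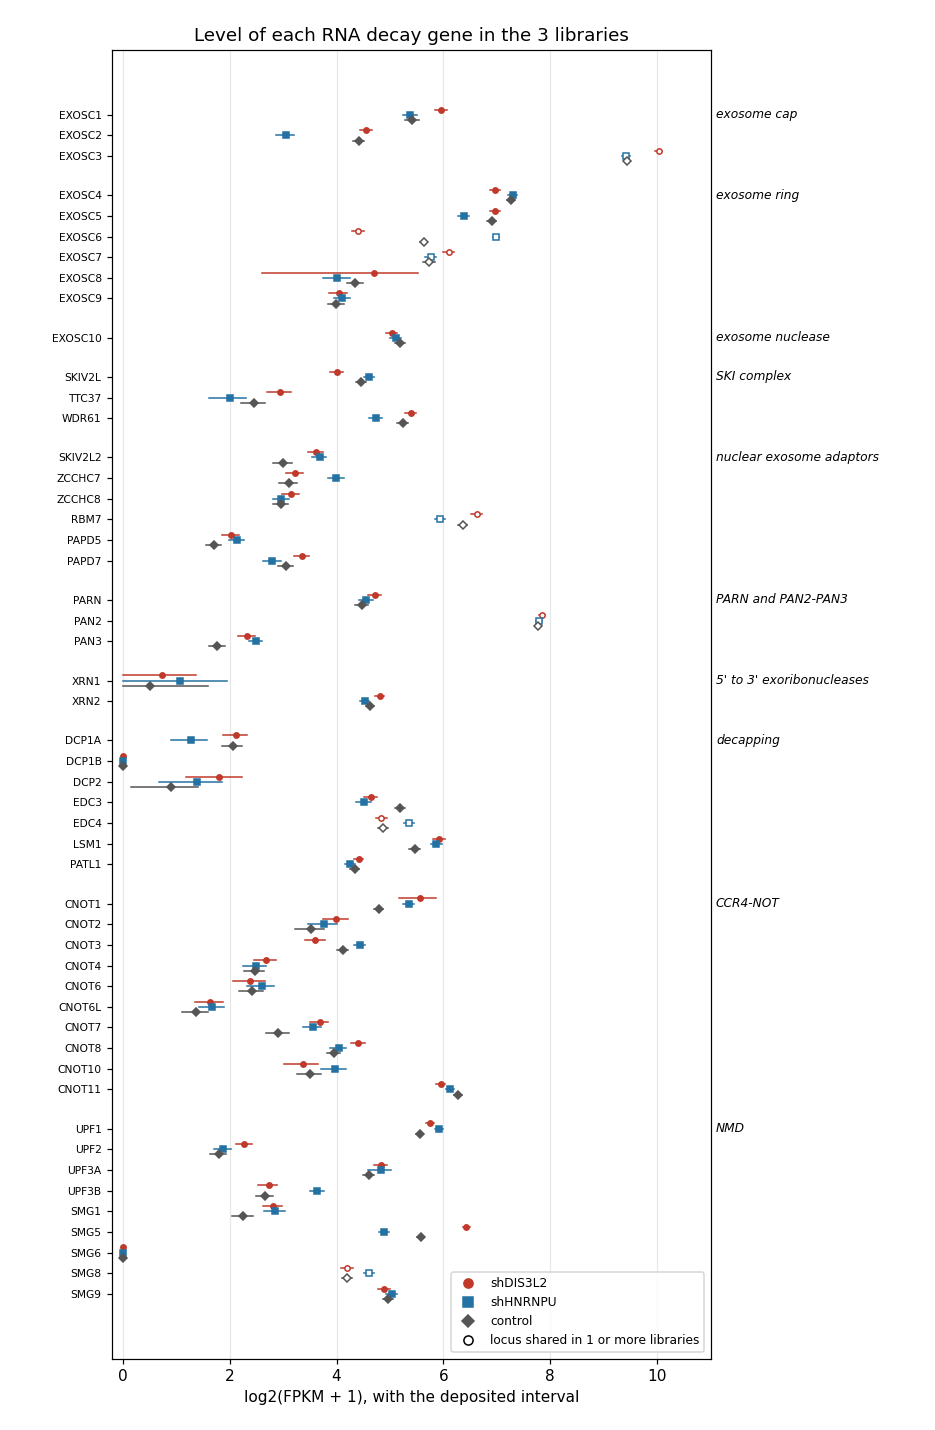
Level of each of the 50 genes by complex, as log2 of FPKM plus 1 on the x axis, with the deposited interval as a bar, in shDIS3L2 (circles), shHNRNPU (squares) and control (diamonds). Levels run from 0 for DCP1B and SMG6 to 125 to 156 FPKM for EXOSC4, the highest gene with a locus of its own; open symbols mark genes whose locus also holds another coding gene in at least 1 library.

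Few of the decay genes differed from control by the size asked for a call, in either knockdown. In shDIS3L2, 0 of 47 genes were called higher and 1 was called lower (EXOSC6), where 8.95% of all loci were called higher and 7.58% lower. Intervals were apart in the higher direction for 20 genes and in the lower direction for 6, against 32.7% and 25.3% of all loci, 58.1% in either direction. In shHNRNPU, 1 gene was called higher, which was EXOSC6 at the locus joined with AARS, and 1 was called lower (EXOSC2), where 8.32% of all loci were called higher and 7.46% lower. Intervals were apart upward for 15 genes and downward for 8, against 34.9% and 23.4% of all loci, 58.4% in either direction.

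The typical difference was small. The median log2 ratio of the 47 genes was 0.19 in shDIS3L2 and 0.08 in shHNRNPU over control, beside 0.09 and 0.12 for all loci. Leaving sign aside, the median size was 0.30 in shDIS3L2 and 0.33 in shHNRNPU, beside 0.44 for all loci in each. These small shifts depend on the scale of the libraries: all loci above 0 in every library had a median of 0.10 in shDIS3L2 and 0.13 in shHNRNPU over control. After rescaling by the median of ratios, which brings these medians to 0.00 and -0.01, the genes apart were 12 higher and 7 lower in shDIS3L2 and 13 higher and 16 lower in shHNRNPU, and the members' medians were 0.10 and -0.06. Of all loci after rescaling, 27.4% were apart upward and 29.3% downward in shDIS3L2, and 27.1% and 29.8% in shHNRNPU. The genes called in either knockdown were the same after rescaling. Over the 40 genes with no second coding gene in the locus, 0 were called in shDIS3L2, with 17 apart upward and 5 downward, and 1 was called in shHNRNPU, with 12 apart upward and 7 downward.

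**Figure D2:**
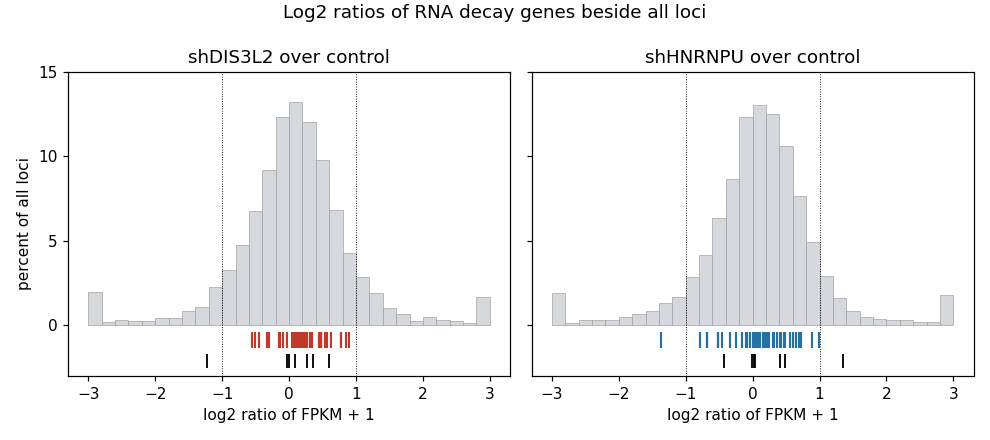
Log2 ratios over control (x axis) of the 47 measured genes, as coloured ticks for the 40 genes with a locus of their own and black ticks for the 7 whose locus also holds another coding gene in at least 1 library, under the histogram of all 11787 loci in percent (ratios beyond 3 fall in the end bins). Most ticks lie between the dotted lines at -1 and 1; EXOSC6 at -1.23 lies outside them in shDIS3L2, and EXOSC2 at -1.37 and the EXOSC6 locus at 1.35 lie outside in shHNRNPU.

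Both comparisons share the same control library, so the values are set side by side without a measure of their likeness. The genes apart upward in both knockdowns were 8, SKIV2L2, PAPD5, PAN3, LSM1, CNOT1, CNOT7, UPF1 and SMG1, or 17.02% of the 47, near the 16.1% of all loci that were so. Of these, PAPD5 and UPF1 overlapped control in shDIS3L2 after rescaling. EDC3 and CNOT11 were apart downward in both, 4.26% of the 47 beside 11.2% of all loci. SMG5 and the RBM7 locus were higher in shDIS3L2 and lower in shHNRNPU, 4.26% of the 47 beside 5.41% of all loci. CNOT3 and the EXOSC6 locus, joined with AARS in shHNRNPU, were lower in shDIS3L2 and higher in shHNRNPU. These are 4.26% of the 47 beside 6.05% of all loci. After rescaling, the RBM7 locus overlapped control in shDIS3L2 and CNOT3 overlapped control in shHNRNPU, whereas SMG5 stayed apart in both. In 12 genes, among them EXOSC8, EXOSC9, EXOSC10, PATL1, CNOT2, CNOT6 and SMG9, the intervals overlapped control in both knockdowns, 25.5% of the 47 beside 22.3% of all loci. After rescaling, EXOSC8, EXOSC10, PAN2 and PATL1 of these were apart downward in shHNRNPU, and EXOSC10 also in shDIS3L2.

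**Figure D3:**
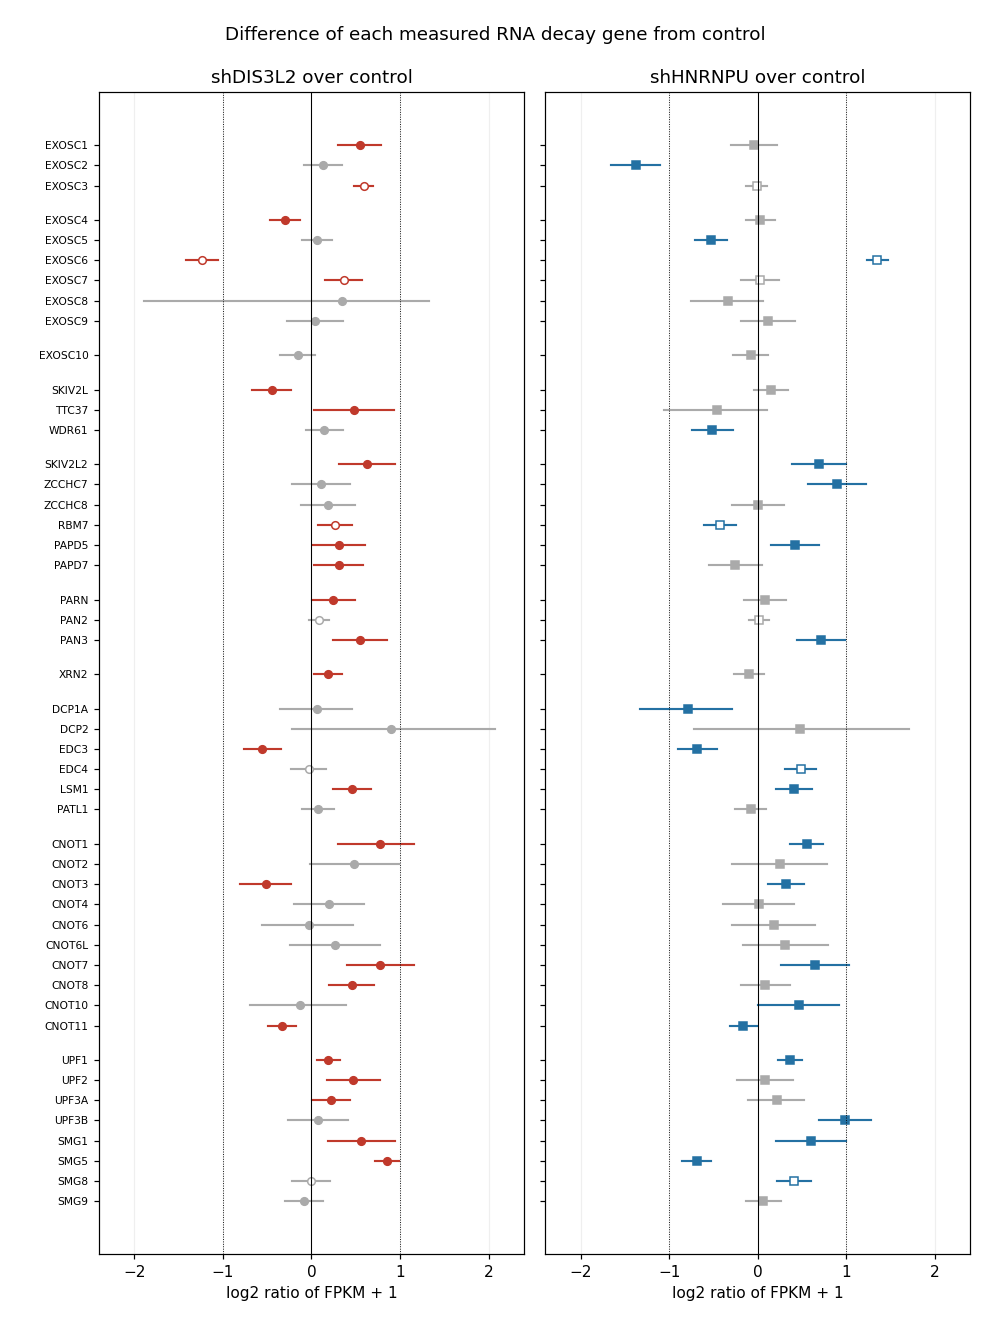
Log2 ratio of FPKM plus 1 for the 47 measured genes in shDIS3L2 over control (left) and shHNRNPU over control (right), with the range spanned by the ends of the 2 deposited intervals. Grey marks intervals that overlap, open symbols mark genes whose locus also holds another coding gene in at least 1 library, and dotted lines mark -1 and 1; EXOSC2 at -1.37 is the lowest gene with a locus of its own.

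Of the 9 subunits of the exosome core, 3 were apart upward and 2 downward in shDIS3L2, and 1 upward, the EXOSC6 locus, and 2 downward in shHNRNPU. These are 55.6% and 33.3% of the core, beside 58.1% and 58.4% of all loci apart in either direction. After rescaling, 3 were apart upward and 2 downward in shDIS3L2, and 1 upward and 4 downward in shHNRNPU. These are 55.6% of the core in each, beside 56.8% and 56.9% of all loci. The largest difference from control at a locus with no second coding gene was in EXOSC2, a cap subunit of the exosome core (Rrp4 in yeast), at chr9:133569108-133583341 (hg19). It had 22.4 FPKM (20.6 to 24.2) in shDIS3L2 and 7.27 FPKM (6.28 to 8.26) in shHNRNPU, against 20.4 FPKM (18.9 to 21.9) in control. The shHNRNPU library was low and the other two overlapped. The log2 ratio was -1.37 in shHNRNPU, with a range of -1.65 to -1.10 from the interval ends, and 0.13 in shDIS3L2. The assembled locus ended at different bases in the 3 libraries, and the part of this in the difference was not tested. EXOSC1, the other cap subunit with a locus of its own (Csl4 in yeast), was high in shDIS3L2, with 61.4 FPKM (56.3 to 66.4) in shDIS3L2, 40.6 FPKM (36.7 to 44.6) in shHNRNPU and 41.8 FPKM (38.1 to 45.5) in control. EXOSC3 (Rrp40 in yeast), at a locus joined with FBXO10, SHB, SLC25A51 and TOMM5, had 1041 FPKM in shDIS3L2, 685 FPKM in shHNRNPU and 692 FPKM in control. All 3 cap loci, the joined EXOSC3 locus among them, were apart downward in shHNRNPU against shDIS3L2. Of all loci, 28.4% were apart downward in that comparison and 60.2% in either direction.

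The ring of the exosome held its most and some of its least abundant subunits. EXOSC4 (Rrp41 in yeast) had 125 FPKM (116 to 133) in shDIS3L2 and 156 FPKM (147 to 166) in shHNRNPU, against 153 FPKM (145 to 162) in control, the highest core subunit with a locus of its own in each library. EXOSC9 (Rrp45 in yeast) had 15.4 FPKM (13.5 to 17.3) in shDIS3L2 and 16.3 FPKM (14.4 to 18.1) in shHNRNPU, against 14.9 FPKM (13.3 to 16.6) in control, with all 3 intervals overlapping. The core forms with 1 copy of each subunit, yet the highest and lowest of the 6 subunits with own loci stood 8.08 times apart in shDIS3L2 and 21.5 times in shHNRNPU, against 10.3 times in control. Of these 6, EXOSC5, EXOSC8 and EXOSC9 overlap other expressed loci, so their levels, and with them these spreads, are uncertain. The wider spread in shHNRNPU came with EXOSC2 as the lowest subunit there, in place of EXOSC9. EXOSC5 (Rrp46 in yeast) had 124 FPKM in shDIS3L2 and 82.1 FPKM in shHNRNPU, against 118 FPKM in control. Only shHNRNPU was apart from control for EXOSC5.

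EXOSC6 (Mtr3 in yeast) could be compared in shDIS3L2 alone. At chr16:70284134-70285833 (hg19) it had 20.1 FPKM (18.4 to 21.8) in shDIS3L2, against 48.6 FPKM (46.3 to 50.9) in control, a log2 ratio of -1.23. In shHNRNPU the locus reached to base 70323446 and took in AARS, an alanyl-tRNA synthetase gene, and the joined value was 126 FPKM (121 to 131). AARS on its own had 101 FPKM in shDIS3L2 and 129 FPKM in control, so the joined value lies near the level of AARS and says nothing separate of EXOSC6. Of the other ring subunits, the EXOSC7 locus was apart upward in shDIS3L2, and EXOSC8 had an interval of 5.07 to 44.8 FPKM in shDIS3L2, too wide to place it. EXOSC10, the nuclear 3′ to 5′ nuclease of the complex, had 31.6 FPKM in shDIS3L2 and 33.4 FPKM in shHNRNPU, against 35.4 FPKM in control. Its intervals overlapped in every comparison as deposited, and after rescaling it was apart downward from control in both knockdowns, with log2 ratios of -0.26 and -0.23.

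Of the SKI complex, which threads cytoplasmic RNA into the exosome, the WD-repeat subunit WDR61 was the highest, with 41.0 FPKM (37.9 to 44.1) in shDIS3L2, 25.6 FPKM (23.2 to 28.0) in shHNRNPU and 36.9 FPKM (34.2 to 39.6) in control. The scaffold TTC37 was the lowest, with 6.65 FPKM (5.48 to 7.81) in shDIS3L2, 2.999 FPKM (2.06 to 3.94) in shHNRNPU and 4.48 FPKM (3.60 to 5.36) in control. Both were thus lower in shHNRNPU than in shDIS3L2, with log2 ratios of -0.66 and -0.94. The helicase SKIV2L went the other way, with 15.1 FPKM (13.7 to 16.5) in shDIS3L2 and 23.4 FPKM (21.8 to 25.04) in shHNRNPU, against 21.0 FPKM (19.6 to 22.4) in control. Its intervals were apart from control in shDIS3L2 only.

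Of the 6 nuclear adaptors, 4 were apart upward and 0 downward in shDIS3L2, and 3 upward and 1 downward in shHNRNPU, 66.7% in each, near the 58.1% and 58.4% of all loci. After rescaling these were 1 and 0 in shDIS3L2, and 3 and 2 in shHNRNPU. Those counts are 16.7% and 83.3% of the 6, beside 56.8% and 56.9% of all loci. The nuclear helicase SKIV2L2, known as MTR4, was higher in both knockdowns, with 11.3 FPKM (10.1 to 12.5) in shDIS3L2 and 11.8 FPKM (10.7 to 12.98) in shHNRNPU, against 6.97 FPKM (5.98 to 7.95) in control. The log2 ratios were 0.63 and 0.69, under the size asked for a call. SKIV2L therefore held a smaller share of the summed FPKM of both helicases in the knockdowns, 57.2% (52.4 to 62.0) in shDIS3L2 and 66.4% (62.6 to 70.1) in shHNRNPU, against 75.1% (71.1 to 78.9) in control. These shares do not depend on library scale. SKIV2L2 overlaps the loci PPAP2A and RNF138P1, and 10.4% of the 50-base stretches of its transcript also occur in PLPP1 transcripts. SKIV2L overlaps NELFE, so the levels of both helicases, and with them these shares, are uncertain.

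ZCCHC7 and ZCCHC8 carry zinc knuckles and scaffold the TRAMP and NEXT adaptors. ZCCHC7, at chr9:37120536-37358146 (hg19), had 8.28 FPKM (7.25 to 9.31) in shDIS3L2 and 14.98 FPKM (13.3 to 16.7) in shHNRNPU, against 7.61 FPKM (6.61 to 8.61) in control. Only shHNRNPU stood high, with a log2 ratio of 0.89; the long noncoding locus RP11-220I1.4 overlaps it. ZCCHC8 had 7.85, 6.79 and 6.75 FPKM in shDIS3L2, shHNRNPU and control, with overlapping intervals. RBM7, the RNA-binding subunit of NEXT, lies in a locus joined with REXO2, itself an oligoribonuclease gene, which had 98.02 FPKM (90.9 to 105) in shDIS3L2, 60.5 FPKM (56.4 to 64.5) in shHNRNPU and 81.4 FPKM (76.3 to 86.4) in control.

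PAPD5 and PAPD7 are related non-canonical poly(A) polymerases that add tails in the nucleus. PAPD5 had 3.06 FPKM (2.62 to 3.51) in shDIS3L2 and 3.38 FPKM (2.96 to 3.79) in shHNRNPU, against 2.27 FPKM (1.95 to 2.58) in control. PAPD7 had 9.24 FPKM (8.26 to 10.2) in shDIS3L2 and 5.95 FPKM (5.17 to 6.73) in shHNRNPU, against 7.28 FPKM (6.50 to 8.06) in control. PAPD5 thus made up 24.9% (20.4 to 29.8) of the pair in shDIS3L2 and 36.2% (30.6 to 42.3) in shHNRNPU, against 23.7% (19.5 to 28.4) in control. The shHNRNPU share lay apart from both others.

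**Figure D4:**
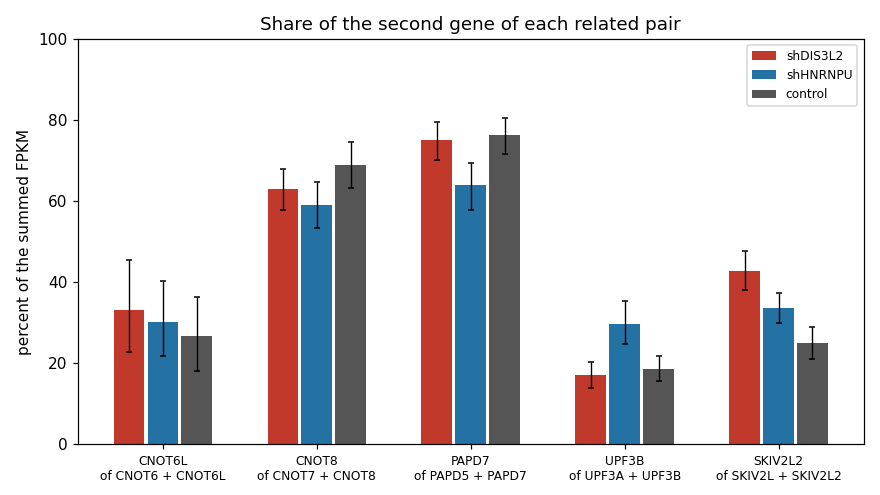
Share of the second gene in the summed FPKM of 5 related pairs (y axis, percent) in shDIS3L2, shHNRNPU and control, with the range that the deposited intervals allow. UPF3B held 29.5% of its pair in shHNRNPU against 18.5% in control, and SKIV2L2 held 42.8% in shDIS3L2 and 33.6% in shHNRNPU against 24.9% in control.

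Among the enzymes that start on the tail outside CCR4-NOT, PAN3, which tethers PAN2 to poly(A)-binding protein, was higher in both knockdowns. It had 3.97 FPKM (3.43 to 4.52) in shDIS3L2 and 4.60 FPKM (4.11 to 5.08) in shHNRNPU, against 2.41 FPKM (2.07 to 2.76) in control, log2 ratios of 0.54 and 0.72. The PAN3 locus began at a different base in shHNRNPU. The locus of the nuclease PAN2, joined with CNPY2 and CS, had 230.02 FPKM (221 to 239) in shDIS3L2, 219 FPKM (210.3 to 228) in shHNRNPU and 216 FPKM (208 to 225) in control. The poly(A)-specific ribonuclease PARN had 25.3, 22.5 and 21.2 FPKM in shDIS3L2, shHNRNPU and control, apart from control in shDIS3L2 before but not after rescaling.

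CCR4-NOT is the main cytoplasmic deadenylase, built on the scaffold CNOT1. Of its 10 genes, 3 were apart upward and 2 downward in shDIS3L2, and 4 upward and 1 downward in shHNRNPU, with 0 called in either. Of all loci, 58.1% and 58.4% were apart and 16.5% and 15.8% were called in shDIS3L2 and shHNRNPU. After rescaling the counts were 3 upward and 2 downward in shDIS3L2, and 2 upward and 1 downward in shHNRNPU. Those counts are 50% and 30% of the 10, beside 56.8% and 56.9% of all loci. CNOT1 had 46.2 FPKM (35.0 to 57.5) in shDIS3L2 and 39.7 FPKM (36.9 to 42.4) in shHNRNPU, against 26.7 FPKM (25.1 to 28.4) in control. Both knockdowns stood above control, with log2 ratios of 0.77 and 0.55, though 13.3% of CNOT1's 50-base stretches also occur in other genes' transcripts. CNOT11, of the CNOT10-CNOT11 module, was the highest gene and went the other way, with 60.7 FPKM (57.2 to 64.1) in shDIS3L2 and 68.4 FPKM (64.7 to 72.1) in shHNRNPU, against 76.7 FPKM (72.7 to 80.6) in control.

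The deadenylases of the complex come as 2 related pairs. CNOT7, of the CAF1 class, had 11.9 FPKM (10.4 to 13.3) in shDIS3L2 and 10.7 FPKM (9.35 to 12.1) in shHNRNPU, against 6.50 FPKM (5.41 to 7.60) in control, log2 ratios of 0.78 and 0.64. Its partner CNOT8 had 20.1 FPKM (18.2 to 22.05) in shDIS3L2 and 15.4 FPKM (13.7 to 17.1) in shHNRNPU, against 14.5 FPKM (13.1 to 15.8) in control. CNOT8 was the more abundant of the pair in all 3 libraries, and the range of the CNOT7 share, 37.1% in shDIS3L2 and 41.0% in shHNRNPU against 31.0% in control, overlapped between libraries. CNOT6 and CNOT6L, of the CCR4 class, were lower. CNOT6 had 4.23 FPKM (3.19 to 5.28) in shDIS3L2 and 5.07 FPKM (4.03 to 6.10) in shHNRNPU, against 4.34 FPKM (3.53 to 5.15) in control. CNOT6L had 2.10 FPKM (1.55 to 2.66) in shDIS3L2 and 2.196 FPKM (1.69 to 2.71) in shHNRNPU, against 1.58 FPKM (1.14 to 2.01) in control, and neither gene was apart in any comparison.

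In the NOT module, CNOT3 had 11.2 FPKM (9.64 to 12.7) in shDIS3L2 and 20.6 FPKM (19.1 to 22.1) in shHNRNPU, against 16.4 FPKM (15.1 to 17.6) in control. As deposited, the 3 libraries were apart from each other, shDIS3L2 lowest and shHNRNPU highest. The shHNRNPU value of CNOT3 overlapped control after rescaling, with a log2 ratio of 0.17, while shDIS3L2 stayed apart below both. The CNOT3 locus began at a different base in shHNRNPU. It overlaps LENG1, whose transcripts hold some of the same 50-base stretches, so the CNOT3 level is uncertain. CNOT2 overlapped control in both knockdowns, as did the RING ubiquitin ligase CNOT4. CNOT10 was apart from control in shHNRNPU only, with 14.6 FPKM (12.1 to 17.1) against 10.3 FPKM (8.60 to 12.01), and no longer after rescaling; its locus is joined with the pseudogene SUGT1P2.

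Decapping showed 1 gene of 6 apart upward and 1 downward in shDIS3L2, and 2 upward and 2 downward in shHNRNPU (2 and 3 after rescaling). As deposited, these are 33.3% and 66.7% of the 6 genes, beside 58.1% and 58.4% of all loci. After rescaling the shares were 33.3% and 83.3%, beside 56.8% and 56.9% of all loci. The cap hydrolase DCP2 was near the limit of these data, with 2.48 FPKM (1.27 to 3.70) in shDIS3L2 and 1.62 FPKM (0.601 to 2.63) in shHNRNPU, against 0.876 FPKM (0.114 to 1.64) in control. Its log2 ratio of 0.89 in shDIS3L2 was the highest of all 47 genes there, yet the intervals overlapped. DCP1A, which activates DCP2, had 3.35 FPKM (2.69 to 4.01) in shDIS3L2 and 1.42 FPKM (0.867 to 1.98) in shHNRNPU, against 3.17 FPKM (2.64 to 3.71) in control. It was low in shHNRNPU alone, with a log2 ratio of -0.78. Its relative DCP1B was listed at 0 throughout.

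EDC3, an enhancer of decapping, was lower in both knockdowns, with 23.9 FPKM (21.8 to 25.9) in shDIS3L2 and 21.8 FPKM (19.7 to 23.9) in shHNRNPU, against 35.5 FPKM (33.3 to 37.7) in control. LSM1, which defines the cytoplasmic LSM ring that binds shortened tails, was higher in both. It had 59.5 FPKM (55.1 to 64.0) in shDIS3L2 and 57.4 FPKM (53.4 to 61.4) in shHNRNPU, against 43.0 FPKM (39.7 to 46.3) in control. Of the 50-base stretches of the LSM1 transcript, 44.7% also occur in transcripts of the overlapping BAG4 and of AC084024.3, so its level is uncertain. The decapping scaffold EDC4, in a locus joined with NRN1L, had 27.6 FPKM in shDIS3L2 and 40.01 FPKM in shHNRNPU, against 28.3 FPKM in control, and PATL1, which bridges the LSM ring and DCP2, had 20.3, 18.1 and 19.2 FPKM in shDIS3L2, shHNRNPU and control. Of both, only the EDC4 locus in shHNRNPU was apart from control, and after rescaling PATL1 was also apart, downward, in shHNRNPU. Of the exonucleases that follow decapping, XRN2, the nuclear one, had 27.1 FPKM (25.5 to 28.6) in shDIS3L2, 22.03 FPKM (20.6 to 23.5) in shHNRNPU and 23.7 FPKM (22.3 to 25.1) in control. XRN1, the cytoplasmic one, had 0.659 FPKM (0 to 1.57) in shDIS3L2, 1.09 FPKM (0 to 2.87) in shHNRNPU and 0.428 FPKM (0 to 1.999) in control, so its level could not be told from 0 in any library.

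Of 8 NMD genes, 5 were apart upward and 0 downward in shDIS3L2, and 4 upward and 1 downward in shHNRNPU, 62.5% in each, near the 58.1% and 58.4% of all loci. After rescaling, 3 were apart upward in shDIS3L2 and the counts in shHNRNPU were 4 and 1. Those counts are 37.5% and 62.5% of the 8, beside 56.8% and 56.9% of all loci. The adaptor SMG5, which binds phosphorylated UPF1 and brings in decay enzymes, differed most between the knockdowns among genes with no second coding gene in the locus. At chr1:156219015-156252620 (hg19) it had 85.1 FPKM (81.0 to 89.1) in shDIS3L2 and 28.6 FPKM (26.7 to 30.5) in shHNRNPU, against 46.7 FPKM (44.3 to 49.0) in control. The 3 libraries were apart from each other, with shDIS3L2 high and shHNRNPU low. The log2 ratios over control were 0.85 in shDIS3L2 and -0.69 in shHNRNPU, neither a call, while shHNRNPU over shDIS3L2 gave -1.54. The start of the locus differed by a few bases in shDIS3L2.

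UPF3B, which links UPF1 to the exon junction complex, was high in shHNRNPU alone. At chrX:118967985-118986961 (hg19), with the same bounds in all 3 libraries, it had 5.62 FPKM (4.81 to 6.43) in shDIS3L2 and 11.4 FPKM (10.3 to 12.6) in shHNRNPU, against 5.29 FPKM (4.59 to 5.98) in control. Its log2 ratio in shHNRNPU, 0.99, lay just short of the limit, and it was called with a pseudocount of 0.1. Its relative UPF3A had 27.4 FPKM (25.1 to 29.6) in shDIS3L2 and 27.3 FPKM (23.1 to 31.5) in shHNRNPU, against 23.3 FPKM (21.6 to 25.02) in control. UPF3B made up 17.02% (14.0 to 20.4) of the pair in shDIS3L2 and 29.5% (24.6 to 35.2) in shHNRNPU, against 18.5% (15.5 to 21.7) in control. Pseudogenes of UPF3A hold 42.1% of its 50-base stretches, so the UPF3A level, and with it these shares, is uncertain.

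**Figure D5:**
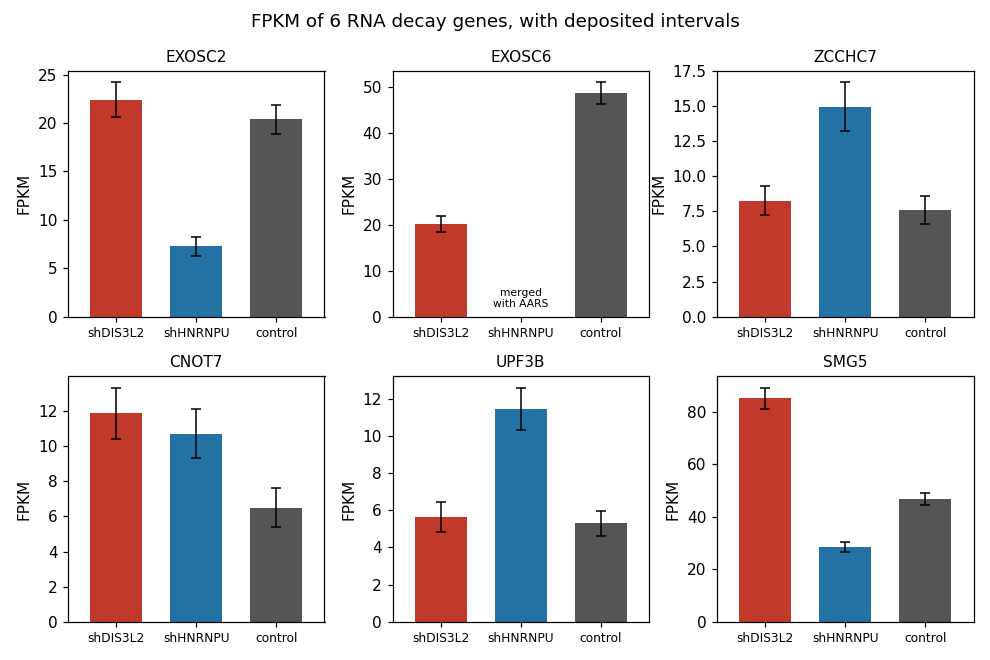
FPKM (y axis, from 0) of EXOSC2, EXOSC6, ZCCHC7, CNOT7, UPF3B and SMG5 in shDIS3L2, shHNRNPU and control, with the deposited intervals as error bars and 1 library per bar. EXOSC2 is low in shHNRNPU (7.27 FPKM), ZCCHC7 and UPF3B are high there (14.98 and 11.4 FPKM), CNOT7 is higher in both knockdowns, and SMG5 stands at 85.1, 28.6 and 46.7 FPKM; EXOSC6 has no value of its own in shHNRNPU.

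The helicase UPF1, the core of NMD, was abundant and, as deposited, a little higher in both knockdowns. It had 52.9 FPKM (50.4 to 55.5) in shDIS3L2 and 59.7 FPKM (56.6 to 62.7) in shHNRNPU, against 46.2 FPKM (44.0 to 48.4) in control. After rescaling, UPF1 overlapped control in shDIS3L2, with a log2 ratio of 0.09. UPF2, which bridges UPF1 and UPF3, had 3.81 FPKM (3.32 to 4.31) in shDIS3L2 and 2.67 FPKM (2.26 to 3.09) in shHNRNPU, against 2.47 FPKM (2.11 to 2.83) in control, and was apart from control in shDIS3L2 only. SMG1, the kinase of UPF1, had 6.02 FPKM (5.16 to 6.88) in shDIS3L2 and 6.21 FPKM (5.23 to 7.19) in shHNRNPU, against 3.76 FPKM (3.11 to 4.41) in control. SMG1 was thus higher in both, but 18.9% of its 50-base stretches recur in pseudogenes, so its level is uncertain. SMG9, a regulator of SMG1, overlapped in every comparison, and SMG8, its partner, lies in a locus joined with PRR11 that was apart upward in shHNRNPU.

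The knockdowns were also set directly against each other. Of the 47 genes, 1 was called higher in shHNRNPU than in shDIS3L2 (the EXOSC6 locus) and 2 were called lower (EXOSC2 and SMG5), where 10.2% of all loci were called higher and 10.5% lower. Intervals were apart upward for 11 genes and downward for 14, against 31.8% and 28.4% of all loci, 60.2% in either direction, and 20.7% of all loci were called in either direction. The median log2 ratio was -0.13, beside 0.03 for all loci. Of the 9 loci of the exosome core, 5 were apart downward and 2 upward, with a median of -0.58, and of the 3 SKI genes 2 were apart downward and 1 upward. The 8 NMD genes had 2 downward and 3 upward, with a median of 0.09.

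The 5 genes with a log2 ratio over control of at least 0.8 in size and intervals apart were EXOSC2, EXOSC6, ZCCHC7, UPF3B and SMG5, and the 150 bases before the start of each are shown because they carry the largest differences. The bases are RefSeq's, on GRCh38.p14, 5′ to 3′ on the strand of the gene, and capitals mark matches to the motifs searched on both strands. The 8-base motifs were CCGGAAGT, of ETS factors, and AAGATGGC, of YY1. A shorter motif was CCAAT, which the factor NF-Y binds. Another was CACGTG, the letters of the E-box. The last was the core promoter element TATAAA. The stretches lie at chr9:130693610-130693759 (plus strand), chr16:70251941-70252090 (minus), chr9:37120424-37120573 (plus), chrX:119852964-119853113 (minus) and chr1:156282826-156282975 (minus).
EXOSC2: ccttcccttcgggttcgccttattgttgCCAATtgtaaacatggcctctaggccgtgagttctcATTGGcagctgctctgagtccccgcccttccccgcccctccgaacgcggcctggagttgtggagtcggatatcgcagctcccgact
EXOSC6: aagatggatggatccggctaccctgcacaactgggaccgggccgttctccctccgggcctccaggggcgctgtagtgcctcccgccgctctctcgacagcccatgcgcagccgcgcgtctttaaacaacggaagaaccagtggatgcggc
ZCCHC7: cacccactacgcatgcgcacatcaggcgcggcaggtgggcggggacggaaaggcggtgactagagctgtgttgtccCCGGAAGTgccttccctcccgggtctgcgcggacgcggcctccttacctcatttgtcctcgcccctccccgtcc
UPF3B: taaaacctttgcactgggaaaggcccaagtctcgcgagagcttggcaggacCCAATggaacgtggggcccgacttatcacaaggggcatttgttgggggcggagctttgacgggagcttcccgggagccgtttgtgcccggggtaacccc
SMG5: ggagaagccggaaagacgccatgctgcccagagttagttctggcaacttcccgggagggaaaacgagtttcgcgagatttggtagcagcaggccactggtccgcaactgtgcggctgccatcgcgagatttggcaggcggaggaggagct
EXOSC2 holds the CCAAT letters on each strand, UPF3B holds them once and ZCCHC7 holds the ETS letters, while EXOSC6 and SMG5 hold none of the 5 motifs in this stretch. Of the 50 genes, 43 matched the RefSeq promoter table. In the 250 bases before the start, CCAAT occurred in 14 of the 43 (32.6%), beside 32.0% of 35116 promoters. The ETS letters occurred in 3 (6.98%, beside 3.42%), the E-box in 5 (11.6%, beside 6.35%), TATAAA in 1 (2.33%, beside 10.7%) and the YY1 letters in 0 (beside 1.36%). The 43 windows had a median GC content of 63.6%, against 58.0% for all promoters. The sets differ in kind. Each of the 43 genes is read at the start with most GENCODE v29 coding transcript starts nearby, while the 35116 promoters include every listed start. A match is a string of letters, not a bound site.

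Partners of these complexes that are not among the 50 genes were read from 5 lists. Of 13 exosome cofactors and cap-binding adaptors, 1 was called higher and 1 lower in each knockdown. ZFC3H1, which links the exosome to nuclear poly(A) RNA, had 5.09 FPKM in shDIS3L2 and 2.19 FPKM in shHNRNPU, against 1.48 FPKM in control, a log2 ratio of 1.30 in shDIS3L2. GTPBP1, a GTPase, was listed at 0 in shDIS3L2 and had 6.04 FPKM in shHNRNPU, against 13.3 FPKM in control. A single 0 in these tables cannot be told from a failed estimate, so the call of GTPBP1 in shDIS3L2 is uncertain. The gene called higher in shHNRNPU was PELO, a ribosome rescue factor in a locus joined with ITGA1, with 27.9 FPKM against 10.8 FPKM in control.

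Of 13 decapping and LSM partners, DDX6 was called higher in shHNRNPU. EIF4ENIF1 met the rule for a lower call in shDIS3L2 because it was listed at 0 there, with 8.14 FPKM in shHNRNPU and 8.82 FPKM in control, and this too cannot be told from a failed estimate. DDX6, a helicase that represses translation and activates decapping, had 17.6 FPKM in shDIS3L2 and 20.7 FPKM in shHNRNPU, against 9.32 FPKM in control. Of 13 measured deadenylation partners, 2 were called higher and 0 lower in each knockdown. BTG2, an antiproliferative protein that binds CNOT7 and CNOT8, was high in both, with 6.07 FPKM in shDIS3L2 and 8.65 FPKM in shHNRNPU, against 1.93 FPKM in control. Its log2 ratios were 1.27 and 1.72. PABPC1, the main cytoplasmic poly(A)-binding protein, had 587 FPKM in shDIS3L2 and 256 FPKM in shHNRNPU, against 222 FPKM in control, and was called in shDIS3L2 only. CCRN4L, also known as nocturnin, was called higher in shHNRNPU, with 4.93 FPKM against 1.82 FPKM in control.

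Of 13 partners of NMD and the exon junction complex, 0 were called in shDIS3L2, and 1 was called higher and 1 lower in shHNRNPU. ETF1, the termination factor eRF1, had 60.1 FPKM in shDIS3L2 and 16.7 FPKM in shHNRNPU, against 38.9 FPKM in control. RNPS1, a splicing-associated factor in a locus joined with ECI1, had 108 FPKM in shDIS3L2 and 350 FPKM in shHNRNPU, against 138 FPKM in control. Of 8 factors that bind AU-rich elements, 0 were called in either knockdown over control. The counts of calls in the 5 lists are read beside the 16.5% of all loci called in shDIS3L2 and the 15.8% called in shHNRNPU.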

How the data were processed

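The data are 3 RNA-seq libraries of PLC cells, 1 per group. Per the labels' protocols, total RNA was taken up in TRIZOL, and an NEBNext Ultra RNA kit was used for the libraries. The submitters' processing notes name TopHat2 2.0.12, Cufflinks 2.2.1 and hg19. The deposited tables give FPKM per gene, with bounds on either side and a status column, per the file headers. The level of these bounds, the annotation release and the normalization options are unstated in the sources used here. Genes were assembled in each library separately, per the identifiers in the deposited tables, so loci can differ between libraries or hold several genes.

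From these values, genes were matched by name, and where a name had several loci, that of highest mean FPKM was taken. All loci with a mean of at least 1 FPKM, each counted once, gave the background. A call needed a log2 ratio of FPKM plus 1 of at least 1 or at most -1, intervals that did not overlap and a status of OK. Of low values, 60.6%, 57.7% and 58.4% gave whole fragments within 0.02 in shDIS3L2, shHNRNPU and control, too few for a test on counts. The members and lists were chosen with earlier results of these data known. A listed partner gene is left out and not reported here. Values with intervals were given for genes called in any comparison, the 3 highest and 3 lowest log2 ratios per knockdown, the highest and lowest gene of each complex, and related pairs; a few others were added after their values were seen. Shared 50-base stretches were counted in GENCODE v29 transcripts, and names were matched to RefSeq through its synonyms. Other pseudocounts, filters, thresholds and a rescaling were tried. Python 3.11.15, pandas 2.3.3, numpy 2.4.6 and matplotlib 3.10.9 were used. The code of the rule was checked on simulated data, with changes well past the limit and noise drawn from the deposited intervals. The simulation held no spread between cultures, so it cannot show how reliable the calls are.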

Additional observations from a re-analysis of the deposited data

How the results depend on the processing

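With 1 library per group, nothing here measures the spread between cultures, and the level of the deposited intervals is not given. No called gene changed direction under any setting tried. A pseudocount, a filter or a limit cannot reverse a ratio, and rescaling factors of 0.945 to 1.05 are too small to reverse a call. A pseudocount of 0.1 gave 4 calls in shHNRNPU over control (DCP1A at -1.10 and UPF3B at 1.10 were added) and 6 in shHNRNPU over shDIS3L2, where 2 and 3 genes were called; of all loci 19.8% and 24.2% were called at that pseudocount, in place of 15.8% and 20.7%. Rescaling by the median of ratios gave a median of -0.059 in shHNRNPU over control, in place of 0.08. A limit of 1.5 times gave 6 calls in shDIS3L2 over control, 11 in shHNRNPU over control and 14 in shHNRNPU over shDIS3L2, where 34.0%, 33.7% and 39.1% of all loci were called. Keeping only loci with 1 name and the same bounds left 27 genes, with 0 calls in each of the 3 comparisons (15.5%, 15.2% and 19.6% of such loci were called) and 17, 14 and 14 genes apart (59.2%, 59.5% and 60.9%); fewer genes are tested there by construction. Leaving out the 7 loci with a second coding gene, a choice made after seeing the data, gave 0 calls in shDIS3L2 and 1 in shHNRNPU over control. The other settings kept each of these member counts within 1.5 times and each median close to its value. These were a pseudocount of 5, no filter, a filter at 5 FPKM, leaving out genes listed at 0 and summing a name's loci. The share of all loci called was less stable. In shDIS3L2 and shHNRNPU over control it was 16.5% and 15.8%, but 9.03% and 8.60% at a pseudocount of 5. It was also lower with loci listed at 0 left out. With no filter, 1 and 2 of 50 genes were called, beside 4.06% and 3.90% of all loci. How far calls were fewer among the decay genes than among all loci therefore depends on these settings. No paired analysis was possible because each group has 1 library.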

Other observations

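Several partners that differed between the knockdowns were not called over control in either. LSM5, a subunit of the LSM rings, had 71.5 FPKM in shHNRNPU and 169.8 FPKM in shDIS3L2, beside 97.5 FPKM in control. LSM14A, a translational repressor that binds DDX6, had 48.3 FPKM in shHNRNPU and 20.9 FPKM in shDIS3L2, beside 24.7 FPKM in control. ZC3H18, which links the cap-binding complex to the nuclear exosome, had 39.2 FPKM in shHNRNPU and 17.1 FPKM in shDIS3L2, beside 23.9 FPKM in control. EIF4A3, the helicase of the exon junction complex, had 159 FPKM in shHNRNPU and 77.0 FPKM in shDIS3L2, beside 87.2 FPKM in control. These genes were chosen after their values were seen, and no test is possible with 1 library per group.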
